A study of Mus musculus with 12 samples.

Results

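The interleukin-1 (IL-1) family cytokines and their regulators were examined in M1-activated bone marrow-derived macrophages (BM-Mɸs) of mice labelled as lacking myeloid ErbB4, a receptor tyrosine kinase for neuregulins, and of their littermates. The 10 genes were chosen by name: the ligands Il1a, Il1b, Il18, Il33 and Il36g, the soluble inhibitors Il1rn and Il18bp, and the receptor chains Il1r1, Il1r2 and Il1rap. They are 10 of 22243 genes measured, and 9 were found under these symbols, while Il36g is listed under its older symbol Il1f9. Of the 10, 8 had a mean of at least 1 TPM (the level of a transcript corrected for its length and scaled to the same total in each library) over the 12 libraries and were among the 8780 genes tested. Il1r1 and Il1r2 lay below that level.

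BM-Mɸs were grown from the bone marrow of C57Bl/6 mice in CMG14-12 conditioned media, which supplies M-CSF. Every culture was M1-activated, by IFNγ (100 U/ml, 16 h) and then LPS (100 ng/ml, 6 h), so no untreated cells are in the comparison. The 6 libraries labelled ErbB4myeKO came from mice with LysMCre and floxed ErbB4 (LysMCre/ErbB4-floxxed), and the 6 labelled ErbB4FF from littermates that carried the same floxed alleles without the recombinase. Each of 6 litters gave 1 library of each genotype, and the question of the comparison is what loss of ErbB4 in myeloid cells does to macrophage cytokine expression. LysMCre is expressed in macrophages and neutrophils alike, from the Lyz2 locus. The age and sex of the mice are not on the labels.

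The labels were checked first. Erbb4 was at 0.583 ± 0.242 TPM (SD, n = 6) in libraries labelled ErbB4myeKO and 0.450 ± 0.132 TPM (SD, n = 6) in those labelled ErbB4FF, and was thus not lower where the gene was to be deleted. This value counts reads from anywhere in the transcript, inside or outside the floxed exon. Lyz2, into which Cre is inserted, was lower in the library labelled ErbB4myeKO of litters 1 to 5 (log2 ratios from -1.20 to -0.81) and higher in that of litter 6 (1.43). The results are therefore given for libraries as labelled, and for Il1a, Il1b, Il1rn, Il18 and Il36g also without litter 6. The macrophage genes Adgre1, Cd68 and Csf1r and the other 5 macrophage markers were expressed at a mean of at least 1 TPM. Of these 8, 4 had a log2 fold change above 0 and 4 below 0. Fcgr1 was lower in the library labelled ErbB4myeKO in all 6 litters, as were 2.31% of all genes tested, with a log2 fold change of -0.86 (limma unadjusted p = 0.00987, adjusted p = 0.603). Mertk was higher in all 6 litters, as were 2.51% of all genes, with a log2 fold change of 0.14 (adjusted p = 0.642 in limma). Of 12 neutrophil markers 7 had a mean under 1 TPM, and Retnlg was listed at 0 in all 12 libraries.

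The IL-1 family works through paired signals and brakes. IL-1α and IL-1β bind the same receptor, IL-1R1, which recruits the accessory protein IL-1RAP and the adaptor MyD88 and leads to NF-κB activation. The antagonist IL-1Ra, encoded by Il1rn, occupies IL-1R1 without recruiting the accessory protein, and the decoy receptor IL-1R2 binds IL-1 without signalling. IL-18 binds its own receptor and is held in solution by the high-affinity IL-18 binding protein, while IL-36γ and IL-33 signal through other receptors that share IL-1RAP. IL-1β and IL-18 are made as precursors that caspase-1 cleaves in inflammasomes, so RNA levels do not give the amount of active cytokine. In macrophages LPS is a strong inducer of Il1a, Il1b and Il1rn.

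Il36g, Il1rn, Il1a and Il1b lie on chromosome 2 in GRCm38 (GENCODE M21). Il36g (ENSMUSG00000044103) spans chr2:24186476-24193568 on the plus strand, and Il1rn (ENSMUSG00000026981) spans chr2:24336853-24351494 on the same strand, 143285 bases further on. Il1a (ENSMUSG00000027399, chr2:129299610-129309972) and Il1b (ENSMUSG00000027398, chr2:129364570-129371139) are neighbours on the minus strand, 54598 bases apart. The promoters of these 4 genes are shown because Il1a and Il1b varied together between libraries, whereas Il1rn and Il36g had the smallest p-values of the family. Each is the RefSeq (GRCm38.p6) sequence from 250 bases before to 50 after the start site, on the gene's strand, with matches to the searched motifs in capitals.
Il1a, chr2:129309923-129310222, minus strand: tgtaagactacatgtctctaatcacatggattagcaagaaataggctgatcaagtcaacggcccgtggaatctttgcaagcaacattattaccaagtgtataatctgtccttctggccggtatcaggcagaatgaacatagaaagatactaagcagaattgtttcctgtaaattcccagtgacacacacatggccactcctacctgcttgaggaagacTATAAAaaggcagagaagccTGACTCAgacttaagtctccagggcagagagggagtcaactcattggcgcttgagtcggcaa
Il1b, chr2:129371090-129371389, minus strand: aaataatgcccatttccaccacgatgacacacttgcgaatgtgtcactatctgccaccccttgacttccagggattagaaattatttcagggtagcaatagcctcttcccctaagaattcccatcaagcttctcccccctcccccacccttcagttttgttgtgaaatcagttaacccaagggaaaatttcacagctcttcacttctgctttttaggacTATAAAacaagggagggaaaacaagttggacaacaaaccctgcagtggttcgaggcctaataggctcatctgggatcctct
Il1rn, chr2:24336610-24336909, plus strand: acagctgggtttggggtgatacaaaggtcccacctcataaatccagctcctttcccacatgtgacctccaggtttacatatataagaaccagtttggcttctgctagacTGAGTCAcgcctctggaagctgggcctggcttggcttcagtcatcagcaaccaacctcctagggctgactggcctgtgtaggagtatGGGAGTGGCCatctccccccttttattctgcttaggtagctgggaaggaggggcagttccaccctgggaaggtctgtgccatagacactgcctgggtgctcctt
Il36g, chr2:24186226-24186525, plus strand: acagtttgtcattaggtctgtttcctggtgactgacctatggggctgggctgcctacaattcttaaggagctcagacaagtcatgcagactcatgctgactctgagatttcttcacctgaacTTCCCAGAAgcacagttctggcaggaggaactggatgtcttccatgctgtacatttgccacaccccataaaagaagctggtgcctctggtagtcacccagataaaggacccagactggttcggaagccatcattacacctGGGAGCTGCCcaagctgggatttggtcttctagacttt

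The motifs were searched on both strands: κB as GGGA and CC with any 4 bases between them, AP-1 as TGANTCA, C/EBP as TTGCNNAA, TATA as TATAAA, GAS as TTCNNNGAA and ISRE as GAAA repeated after any 2 bases. No match overlapped another in these promoters, and positions are those of a match's first base from the start site. The Il1a and Il1b promoters each held TATAAA, at -32 and -31, and Il1a also held the AP-1 match TGACTCA at -12. The Il1rn promoter printed, that of its upstream start site, held the AP-1 match TGAGTCA at -141 and the κB match GGGAGTGGCC at -54. The Il36g promoter held the GAS match TTCCCAGAA at -128 and the κB match GGGAGCTGCC at 12. Among 32851 RefSeq promoters of the same length, 20.7% held the κB letters, 7.81% AP-1, 10.8% C/EBP, 13.6% TATA, 8.30% GAS and 3.44% ISRE. A match is a string of letters and does not show that a factor binds there.

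The family spanned a wide range of levels in M1-activated BM-Mɸs. Il1b was the fifth most abundant of all genes by mean TPM, with 8574 ± 4025 TPM in libraries labelled ErbB4myeKO and 6928 ± 3824 TPM in those labelled ErbB4FF (SD, n = 6 each). It was followed in both genotypes by Il1a, Il1rn, Il18bp, Il18, Il36g, Il1rap, Il33, Il1r2 and Il1r1, in the order of mean TPM. Il1b was above Il1a in all 12 libraries. The order of the next genes was less firm, since Il1a exceeded Il1rn in 5 of 6 libraries labelled ErbB4myeKO but in 3 of 6 labelled ErbB4FF, and Il1rn exceeded Il18bp in 4 and 3 of 6. Il18bp was above Il18 and Il36g above Il1rap in every library with no overlap of their ranges, whereas the ranges of Il18 and Il36g overlapped. The ranges of Il1rap and Il33, of Il33 and Il1r2, and of Il1r2 and Il1r1 overlapped as well.

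**Figure D1:**
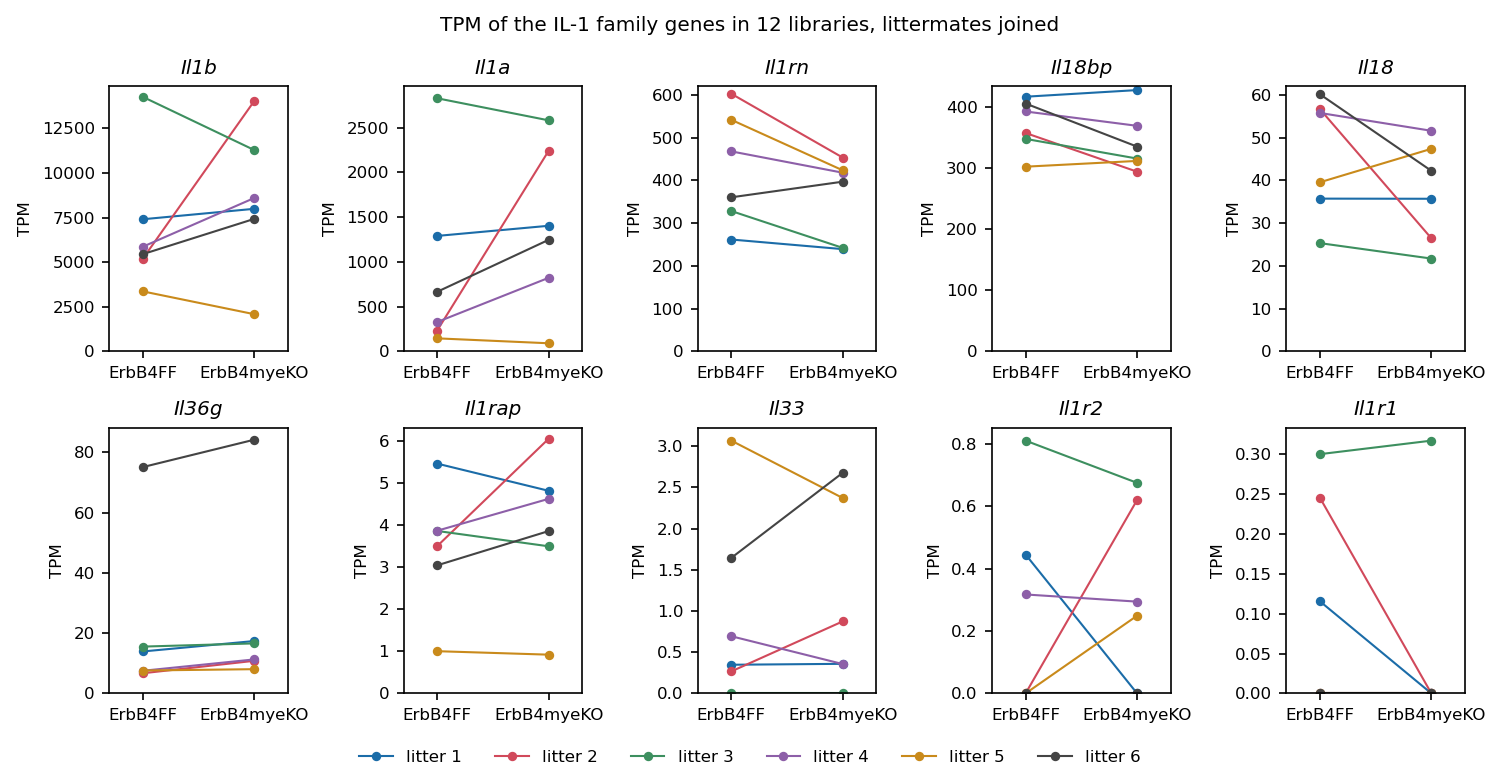
TPM of the 10 genes (linear axes from 0, one panel a gene) in the 6 libraries labelled ErbB4FF (left) and the 6 labelled ErbB4myeKO (right), with a line joining the littermates of each of 6 litters. Il1b reached 14270 TPM, Il36g was highest in litter 6 in both genotypes, and Il1r1 and Il1r2 stayed below 1 TPM.

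Across all 8780 genes tested, limma with litter as a block gave an adjusted p under 0.05 for 0 genes, and the smallest adjusted p was 0.603. At an unadjusted p under 0.05 it gave 721 genes, or 8.21%. Of the 8 IL-1 family genes tested, 2 had an unadjusted p under 0.05, Il36g (higher in libraries labelled ErbB4myeKO) and Il1rn (lower), and neither passed adjustment. Over all genes 3.83% were higher and 4.38% lower at that threshold. The median log2 fold change was 0.13 over the 8 family genes and -0.00068 over all genes tested. The TPM of the 2 genotypes overlapped for all 10 family genes, and 0.0456% of all genes tested had groups that did not overlap. In bulk RNA a change in the number of cells that express a gene and a change in RNA per cell cannot be told apart.

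Il1a, the IL-1 ligand that is active without cleavage by caspase-1, had the greatest mean log2 ratio of the family and also the widest spread of log2 ratios between litters. In libraries labelled ErbB4myeKO the lowest, median and highest values were 91.0, 1324 and 2580 TPM, and in those labelled ErbB4FF 146, 496 and 2827 TPM. The lowest value of either genotype was in litter 5 and the highest in litter 3. Within litters 1 to 6 the log2 ratios of ErbB4myeKO to ErbB4FF were 0.12, 3.27, -0.13, 1.32, -0.68 and 0.90. Their mean was 0.80 ± 1.41 (SD, n = 6; 4 of 6 litters above 0; two-sided exact permutation p = 0.219). The limma standard error was 0.47, the 95% confidence interval ran from -0.29 to 1.90 and the adjusted p was 0.643. Litter 2, where Il1a stood at 2239 TPM against 231 TPM, made up much of the mean, which was 0.31 without it and 0.78 without litter 6.

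Il1b, the ligand that inflammasomes mature, went with Il1a. It ranged from 2086 to 14044 TPM (median 8299) in libraries labelled ErbB4myeKO and from 3366 to 14270 TPM (median 5660) in those labelled ErbB4FF. The same litters were lowest and highest among libraries labelled ErbB4FF as for Il1a, litters 5 and 3, while the highest library labelled ErbB4myeKO was that of litter 2. The log2 ratios in litters 1 to 6 were 0.11, 1.43, -0.34, 0.55, -0.69 and 0.45, with the sign that Il1a had in every litter. On average the log2 ratio was 0.25 ± 0.75 (SD, n = 6; 4 of 6 litters above 0; two-sided exact permutation p = 0.50). It was 0.016 without litter 2, 0.44 without litter 5 and 0.21 without litter 6. With a limma standard error of 0.25, the 95% confidence interval of -0.34 to 0.84 takes in both a lower and a higher level (adjusted p = 0.761).

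Across the 12 libraries log2 levels of Il1a and Il1b had a Pearson correlation of 0.945. Each library gave both values, so anything particular to a culture or library is shared by the 2 values of a point. Its part in the correlation was not tested. The genes whose log2 level was most like that of Il1a were Trem1 (r = 0.985), Ptgs2 (r = 0.980) and Slc7a11 (r = 0.974), and Il1b came 29th. For Il1b they were Cd14 (r = 0.977), Pigm (r = 0.971) and Zfp451 (r = 0.969), with Il1a 15th. The summed TPM of 8 M1 activation markers that contain no IL-1 gene was highest in litter 3 in both genotypes and lowest in litter 5. It was 32820 and 30551 TPM in litter 3, 9966 and 10011 TPM in litter 5, and 23939 against 10951 TPM in litter 2 (ErbB4myeKO first). Il1a and Il1b were lower in the library labelled ErbB4myeKO in litters 3 and 5. The sum was higher there in litter 3 and nearly equal in litter 5. The 8 markers did not vary alike: in libraries labelled ErbB4myeKO Il12b spanned 417 to 8894 TPM and Acod1 3369 to 5803 TPM. Of these 8 markers Il12b and Ptgs2 were higher in libraries labelled ErbB4myeKO at an unadjusted limma p under 0.05 (adjusted p = 0.603 for each), beside 3.83% of all genes tested, and none was lower at that threshold. The log2 fold changes of the 8 were above 0 for 4 (Il12b, Ptgs2, Tnf and Cxcl9) and below 0 for 4 (Nos2, Cd86, Irf1 and Acod1). Their part in the Il1a and Il1b differences was not tested. All of these likenesses are descriptions over 12 libraries in 6 litters.

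**Figure D2:**
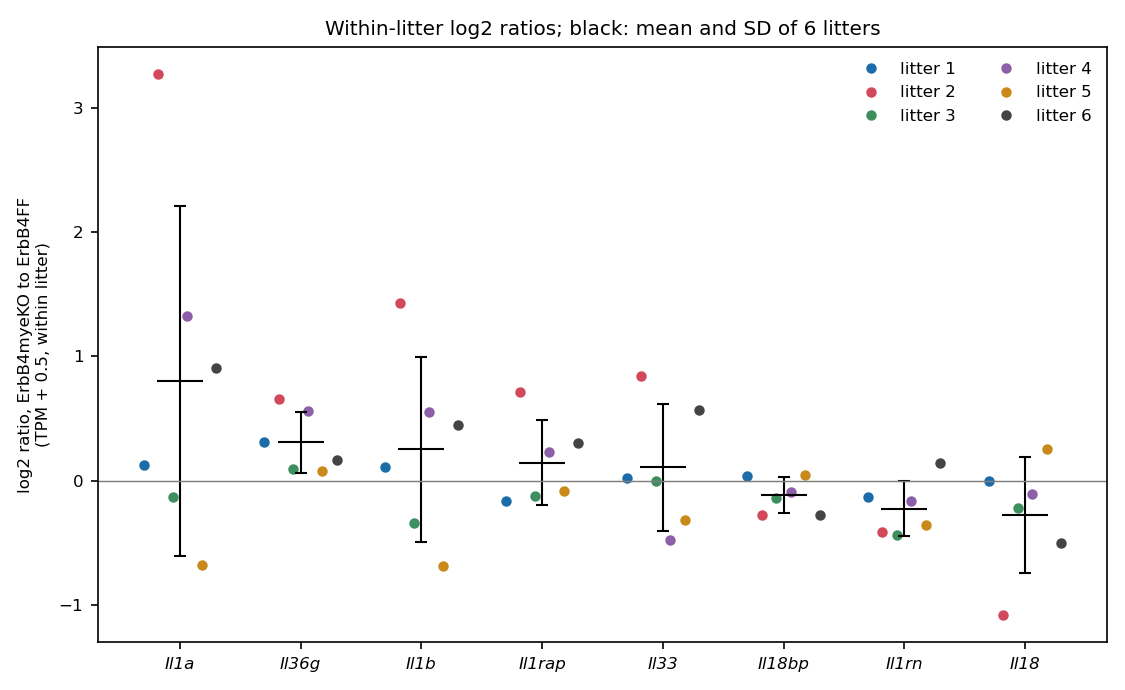
Log2 ratio of TPM + 0.5 of the library labelled ErbB4myeKO to its littermate labelled ErbB4FF for the 8 genes tested, one coloured point a litter, with the mean and SD of 6 litters in black. Litter 2 gave the largest ratios of Il1a (3.27) and Il1b (1.43), all 6 points of Il36g lay above 0, and 5 of 6 points of Il1rn lay below 0.

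Il1rn, which encodes the IL-1 receptor antagonist, was lower in the library labelled ErbB4myeKO in 5 of 6 litters, as were 14.3% of all genes tested in 5 or 6 litters. Its lowest, median and highest values were 239, 407 and 453 TPM in libraries labelled ErbB4myeKO and 262, 414 and 603 TPM in those labelled ErbB4FF. Littermates were close, and the differences between litters were larger than those between genotypes. The log2 ratios in litters 1 to 6 were -0.13, -0.41, -0.44, -0.16, -0.36 and 0.14, with a mean of -0.23 ± 0.22 (SD, n = 6; two-sided exact permutation p = 0.0938). The limma standard error was 0.09, with a 95% confidence interval from -0.43 to -0.03, an unadjusted p of 0.0315 and an adjusted p of 0.603. The only litter with the opposite sign was litter 6, and whether this goes with its Lyz2 value was not tested. In that litter Il36g kept the sign of the other litters (0.16). Without litter 6 the mean log2 ratio was -0.30 (limma unadjusted p = 0.00538, adjusted p = 0.767), all 5 other litters being below 0 (exact permutation p = 0.0625, the smallest that 5 litters allow). The unadjusted p was over 0.05 without litter 2, 3, 4 or 5 (0.0551 to 0.0832), without trend (0.0595) and without the block (0.366). With a covariate from 4 Y-linked genes the log2 fold change was -0.28 (limma unadjusted p = 0.00404, adjusted p = 0.652).

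The table represents Il1rn by 1 of the 6 transcripts in GENCODE M21, ENSMUST00000114487, which begins at the upstream start site whose promoter is printed above. Of its 31-base words, 76.9% also occur in other transcripts of the gene, among them coding transcripts that begin at positions 24345288 and 24345310, at a start site further downstream. The values are therefore of this transcript and not of all antagonist RNA. RefSeq also gives Il1rn promoters at the downstream start site, chr2:24345041-24345340 and chr2:24345121-24345420, which are not printed. Neither held a κB or AP-1 match, and the latter held TATA on the opposite strand (TTTATA at 14). The genes most like Il1rn over the 12 libraries were Rubcnl (r = 0.923), Edem2 (r = 0.921) and Kdm5b (r = 0.914), and its correlations with Il1a and Il1b were -0.66 and -0.43.

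The ratio of agonist to antagonist RNA differed more between litters than between genotypes. Il1b TPM stood at 4.93 to 46.6 times Il1rn TPM (median 25.8) in libraries labelled ErbB4myeKO and at 6.21 to 43.5 times (median 13.8) in those labelled ErbB4FF. Litter 3 had the highest ratio and litter 5 the lowest in both genotypes. The log2 of the ratio was higher in the library labelled ErbB4myeKO in 5 of 6 litters, by 0.48 ± 0.75 on average (SD, n = 6), and by 0.21 without litter 2, where it went from 8.63 to 30.99. Il1a relative to Il1b was higher in all 6 litters, by a log2 of 0.55 ± 0.70 (SD, n = 6), but by 0.01 in both litters 1 and 5 and by 1.84 in litter 2. Both are descriptions and were not tested.

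**Figure D3:**
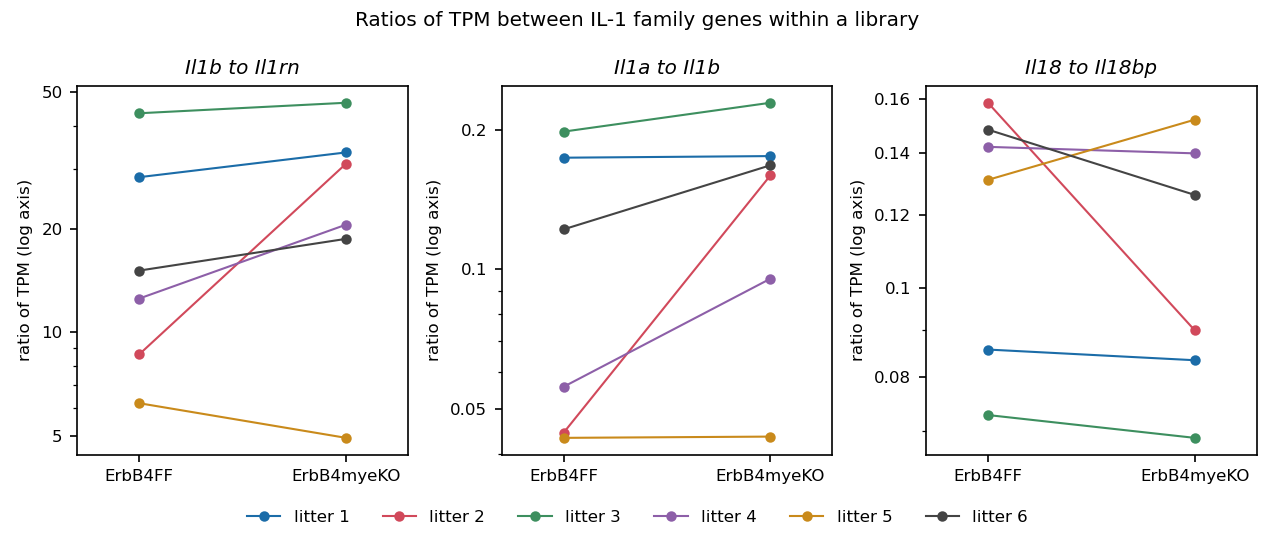
Ratio of TPM of Il1b to Il1rn, Il1a to Il1b and Il18 to Il18bp within each library (log axes), libraries labelled ErbB4FF at left and ErbB4myeKO at right, with a line joining the littermates of each of 6 litters. Il1b to Il1rn ranged from 4.93 to 46.6 across libraries and was highest in litter 3 and lowest in litter 5 in both genotypes.

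The receptors of IL-1 itself were at the floor of the data. Read depth is not known, so a value listed at 0 does not show absence. Nos2, at up to 139 TPM in libraries labelled ErbB4FF, was also listed at 0 in 2 libraries labelled ErbB4myeKO and 1 labelled ErbB4FF. Il1r1, the signalling receptor, was listed at 0 in 5 of 6 libraries labelled ErbB4myeKO and 3 of 6 labelled ErbB4FF, and reached at most 0.317 TPM. Il1r2, the decoy receptor, was listed at 0 in 2 and 3 libraries and reached at most 0.811 TPM. Both genes are represented by 1 of several annotated transcripts, 1 of 3 for Il1r1 and 1 of 4 for Il1r2. Il1rap, the accessory chain shared by the receptors for IL-1, IL-33 and IL-36, ranged from 0.923 to 6.06 TPM (median 4.25) in libraries labelled ErbB4myeKO and from 1.01 to 5.47 TPM (median 3.69) in those labelled ErbB4FF. It was lowest in litter 5 in both genotypes. Its mean log2 ratio was 0.14 ± 0.34 (SD, n = 6; 3 of 6 litters above 0; two-sided exact permutation p = 0.375), with a limma 95% confidence interval from -0.21 to 0.50. Without litter 2 it was 0.031.

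In the IL-18 axis, RNA of the inhibitor exceeded that of the ligand in every library. Il18 was 21.7 to 51.6 TPM (median 38.9) in libraries labelled ErbB4myeKO and 25.3 to 60.1 TPM (median 47.6) in those labelled ErbB4FF. Il18 was lower in the library labelled ErbB4myeKO in 5 of 6 litters, although the log2 ratio of litter 1 was -0.0013, and litter 2 had the largest difference (-1.09). Its log2 ratios averaged -0.28 ± 0.47 (SD, n = 6; two-sided exact permutation p = 0.219), with a 95% confidence interval from -0.66 to 0.11 and an adjusted p of 0.644 in limma. Without litter 2 it was -0.12, and without litter 6 -0.23. With the most abundant Il18 transcript alone it was -0.093.

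Il18bp, an interferon-inducible secreted inhibitor, was the steadiest of the abundant family genes, at 294 to 427 TPM (median 325) in libraries labelled ErbB4myeKO and 302 to 416 TPM (median 375) in those labelled ErbB4FF. Litter 1 held the highest value in both genotypes. Its mean log2 ratio was -0.12 ± 0.14 (SD, n = 6; 4 of 6 litters below 0; two-sided exact permutation p = 0.125), and the limma 95% confidence interval ran from -0.27 to 0.04 (adjusted p = 0.639). Il18 stood at 0.0688 to 0.152 times Il18bp in libraries labelled ErbB4myeKO and 0.0728 to 0.159 times in those labelled ErbB4FF. The ratio was lower in the library labelled ErbB4myeKO in 5 of 6 litters, by a log2 of -0.16 ± 0.35 on average (SD, n = 6), and by -0.03 without litter 2. With the most abundant transcript of each gene alone the direction turned, to 0.040 ± 0.91. The genes most like Il18 were Clec4a3 (r = 0.975), Sdc3 (r = 0.966) and Phf11a (r = 0.965), and those most like Il18bp were Tmem229b (r = 0.905), Cd180 (r = 0.901) and Trpv2 (r = 0.893).

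Il18 was split between 2 transcripts in the table, and the split was unsteady. ENSMUST00000214117 carried from 26.1% to 100% of Il18 TPM and ENSMUST00000180021 the rest. In litter 5 the latter held 73.9% (29.2 TPM) in the library labelled ErbB4FF but 22.9% (10.8 TPM) in that labelled ErbB4myeKO, and it was listed at 0 in the ErbB4FF library of litter 3. Every 31-base word of either transcript occurs in another transcript of the gene, so the division rests on the estimate of the pseudoaligner. The gene sum does not depend on the split between these 2, but it covers 2 of the 4 coding transcripts in GENCODE M21. ENSMUST00000059081, not in the sum, has the same positions (50575273-50581837) and length (702 bases) as ENSMUST00000180021. The sum is therefore not of all Il18 RNA. Neither transcript had a limma unadjusted p under 0.05, against 6.72% of 10085 transcripts tested. Without litter 5, ENSMUST00000214117 had a log2 fold change of -0.47 (limma unadjusted p = 0.0489, adjusted p = 0.590). Il18bp was divided steadily, with 87.1% to 91.5% of its TPM on ENSMUST00000094134.

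**Figure D4:**
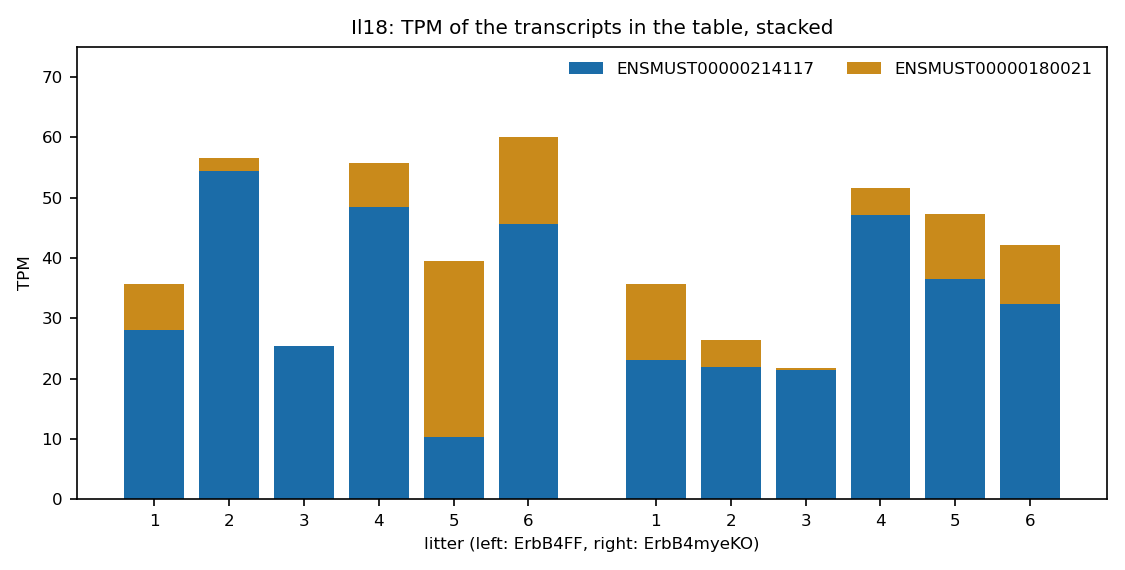
Stacked TPM of the Il18 transcripts ENSMUST00000214117 (blue) and ENSMUST00000180021 (orange) in each library by litter, ErbB4FF at left and ErbB4myeKO at right. In the ErbB4FF library of litter 5 the orange transcript held 73.9% of the gene's TPM, whereas in the others the blue one held most of it.

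Il36g, which encodes the IL-1 family ligand IL-36γ, was higher in the library labelled ErbB4myeKO in all 6 litters, as were 2.51% of all genes tested. Its lowest, median and highest values were 8.04, 13.9 and 84.2 TPM in libraries labelled ErbB4myeKO and 6.69, 10.8 and 75.1 TPM in those labelled ErbB4FF. Litter 6 stood far above the rest in both genotypes, with the next highest values at 17.4 and 15.5 TPM. Within litters 1 to 6 the log2 ratios were 0.31, 0.66, 0.09, 0.56, 0.08 and 0.16. Their mean was 0.31 ± 0.25 (SD, n = 6; two-sided exact permutation p = 0.0312, the smallest that 6 litters allow). In limma the standard error was 0.10, the 95% confidence interval ran from 0.07 to 0.55, the unadjusted p was 0.0186 and the adjusted p was 0.603. Without litter 6 the mean log2 ratio was 0.34 (limma unadjusted p = 0.0311, adjusted p = 0.767). Without litter 4 it was 0.26 and the unadjusted p was 0.0597. Without litter as a block the unadjusted p was 0.636.

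The high Il36g of litter 6 came with a high sum of neutrophil markers, although litter 5 had such a sum and low Il36g. The 12 markers summed to 375 and 155 TPM in litter 6 and to 216 and 186 TPM in litter 5 (ErbB4myeKO first), against 41.3 to 74.5 TPM in the libraries of the other 4 litters. Il36g in litter 5 was 8.04 and 7.60 TPM. S100a8, at up to 253 TPM, S100a9, at up to 103 TPM, Ngp, at up to 18.4 TPM, and Camp, at up to 10.5 TPM, made up most of these sums. Ly6g, Elane and Mpo stayed at or below 0.549 TPM in every library, whereas Mmp8 reached 3.84 TPM and Ltf 1.57 TPM. Camp was higher in the library labelled ErbB4myeKO in all 6 litters, with a log2 fold change of 0.45 (limma unadjusted p = 0.0369, adjusted p = 0.603), and it was the only one of the 5 markers tested with an unadjusted p under 0.05. Over all genes tested 2.51% were higher in all 6 litters and 3.83% were higher at that threshold. S100a8 and Mmp8 were higher in 4 of 6 litters each (mean log2 ratios 0.30 and 0.09), and S100a9 and Ngp in 3 of 6 each (-0.24 and -0.36). The part of these markers in the level of litter 6 or in the Il36g difference was not tested. Of the 31-base words of Il36g, 4.78% occur in other genes.

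Il33, an alarmin stored in the nucleus of epithelial and stromal cells, was barely detected. It ranged from 0 to 2.68 TPM (median 0.617) in libraries labelled ErbB4myeKO and from 0 to 3.07 TPM (median 0.521) in those labelled ErbB4FF. Both libraries of litter 3 were listed at 0, and those of litters 5 and 6 were the highest of each genotype. Its log2 ratios averaged 0.11 ± 0.51 (SD, n = 6; 3 litters above 0 and 2 below; two-sided exact permutation p = 0.562), and -0.04 without litter 2. The 10 stromal and fibroblast markers summed to 9.28 to 105 TPM in libraries labelled ErbB4myeKO and 16.1 to 99.7 TPM in those labelled ErbB4FF, with none at 0 in all 12 libraries, and to 9.28 and 20.7 TPM in litter 3 (ErbB4myeKO first). In litters 5 and 6, where Il33 was highest, they were 82.2 and 76.2 TPM in libraries labelled ErbB4myeKO and 43.7 and 44.1 TPM in those labelled ErbB4FF. The highest sums were in litter 1 (105 and 99.7 TPM), where Il33 was 0.359 and 0.348 TPM. Their part in the Il33 values was not tested.

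The surrounding pathway was taken as 3 lists of 48 genes, of which 35 passed the filter and 1 had an unadjusted p under 0.05 in limma, again beside 8.21% of all genes. Of 11 further ligands, receptors and co-receptors of the family, only Il36a and Il18rap passed the filter, with none at that threshold. All 18 genes of IL-1 receptor signalling, from MyD88 and the IRAK kinases to the IκB kinases, passed the filter, and none had an unadjusted p under 0.05. Their fold changes were above 0 for 13 and below 0 for 5, with a median log2 of 0.06, where all genes tested divided into 4372 above and 4408 below 0 with a median of -0.00068. Of 19 genes of IL-1 and IL-18 maturation and release, 15 passed the filter, 6 above and 9 below 0, with a median of -0.12 beside -0.00068 over all genes.

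The 1 pathway gene with an unadjusted p under 0.05 was Mefv, which encodes the inflammasome sensor pyrin. It was lower in the library labelled ErbB4myeKO in all 6 litters, as were 2.31% of all genes, at 113 ± 44.9 TPM against 126 ± 49.0 TPM (SD, n = 6 each). Its log2 ratios averaged -0.15 ± 0.13 (SD, n = 6; two-sided exact permutation p = 0.0312), and the adjusted p in limma was 0.603. The unadjusted p was over 0.05 whichever litter was left out (0.056 to 0.118), without trend, at the filter of 5 TPM and without the block. Casp1, the protease that matures IL-1β and IL-18, was at 283 ± 38.0 TPM against 330 ± 73.3 TPM, with a mean log2 ratio of -0.20 ± 0.37 (SD, n = 6; 5 of 6 litters below 0; two-sided exact permutation p = 0.281). It was -0.076 without litter 2, and -0.31 without litter 3 (limma unadjusted p = 0.0258, adjusted p = 0.515). Nlrp3, the sensor of the best-known inflammasome, was at 326 ± 124 TPM against 300 ± 123 TPM, with a mean log2 ratio of 0.11 ± 0.21 (SD, n = 6; 4 of 6 litters above 0; two-sided exact permutation p = 0.312). It was 0.049 without litter 2, 0.066 without litter 4 and 0.056 with its most abundant transcript alone. Trim16, a carrier in the secretion of IL-1β, lay below the filter at 0.527 ± 0.443 TPM against 0.0933 ± 0.147 TPM (SD, n = 6 each) and was listed at 0 in 3 libraries labelled ErbB4FF (two-sided exact permutation p = 0.0938). Of the other 3 genes of this list below the filter, P2rx7, the ATP-gated channel that triggers Nlrp3, had a mean of 0.921 TPM and was lower in all 6 litters. Its mean log2 ratio was -0.35 ± 0.27 (SD, n = 6; two-sided exact permutation p = 0.0312, the smallest that 6 litters allow). Gsdme, at a mean of 0.899 TPM, was higher in 5 of 6 litters (0.35 ± 0.32, SD, n = 6; two-sided exact permutation p = 0.0625). Nlrp1b was lower in 4 litters and higher in 1. P2rx7 was picked after its values were seen. The share of genes lower in all 6 litters, 2.31%, was counted only over genes that passed the filter.

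**Figure D5:**
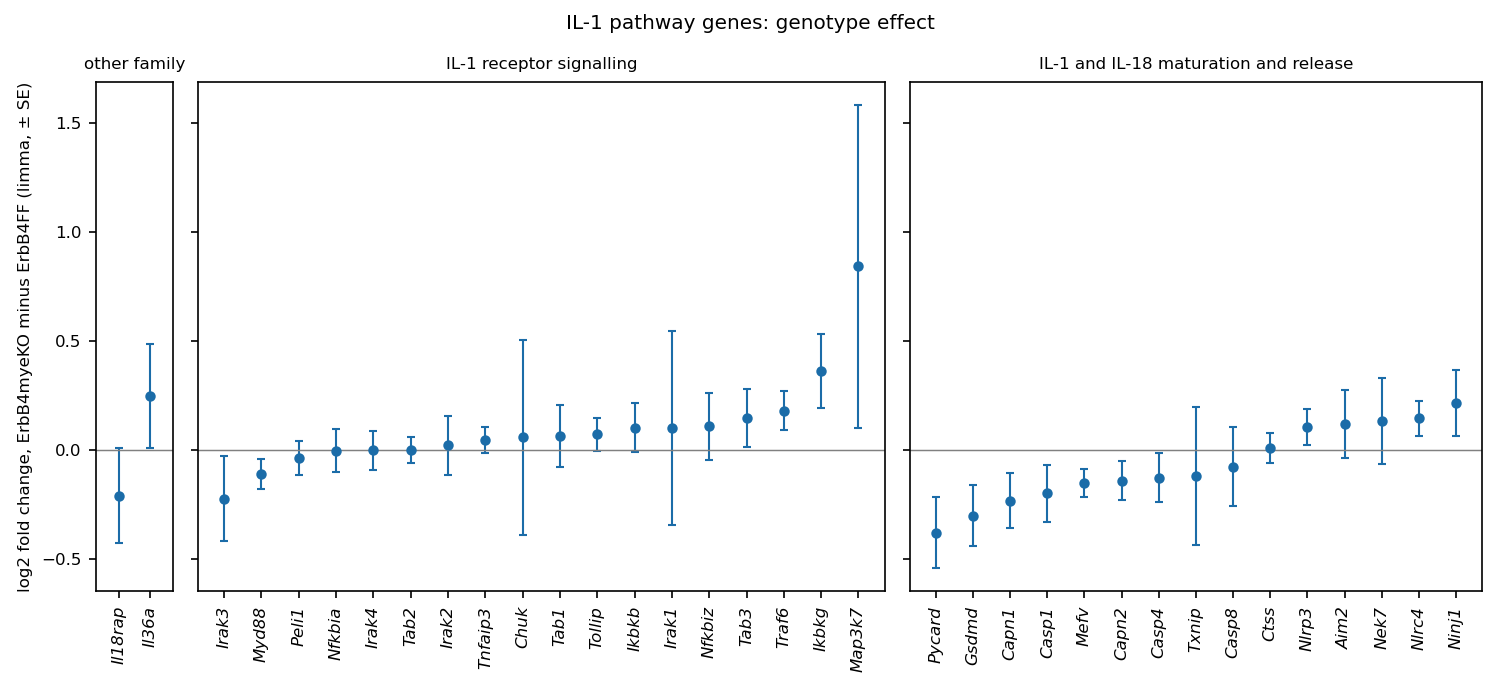
Log2 fold change (ErbB4myeKO minus ErbB4FF, limma with litter as a block) with its standard error for the 35 pathway genes that passed the filter, in 3 lists. Most points lay within 0.4 of 0, with Map3k7 at 0.84 and a wide error.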

How the data were processed

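RNA sequencing covered 12 libraries of M1-activated BM-Mɸs, 6 labelled ErbB4myeKO and 6 labelled ErbB4FF, paired by litter. Per the labels, polyA RNA was made into Illumina stranded mRNA libraries and read as single 75 base reads, and the tools named are CASAVA, kallisto and sleuth with mm10, without versions. The authors deposited kallisto TPM of the principal transcripts in APPRIS, which held 59.0% to 74.7% of each library's TPM. The read depth is not in the table, so precision rests on the spread between litters. The deposited sleuth columns (p-value, q-value, log ratio) were not used, and sex, which the study adjusted for, is not on the labels.

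The table has 29213 lines, and after 405 repeated lines were dropped TPM of the remaining 28808 transcripts were summed for each of 22243 genes. Genes whose mean reached 1 TPM (8780) entered a limma 3.58.1 fit of log2(TPM + 0.5) in R 4.3.3, which blocked on litter, used eBayes with trend, and adjusted p over all genes by Benjamini-Hochberg. Fold changes are on this log2 scale, which understates the change of low genes. Single genes were tested by two-sided exact permutation, in which genotypes were exchanged within litters in 64 ways, or 32 without 1 litter. Littermates deviated together from their group means (r = 0.273 to 0.774 in 6 litters), and the labels pair them. The steps were tested on simulated data. Other steps used Python 3.11.15 (pandas 2.3.3, numpy 2.4.6, matplotlib 3.10.9 and scipy 1.17.1). Il36g was matched to its table symbol through RefSeq synonyms. The members and lists were chosen with earlier results of these data known. All 10 members are named. Of the pathway lists, genes with an unadjusted p under 0.05 (at most 8 a list) and Casp1, Nlrp3 and Trim16 are named. For Il1a, Il1b, Il1rn, Il18 and Il18bp the 3 genes with the highest Pearson r are named. Marker genes and other genes were picked after their values were seen. Alternatives were no block, a covariate from 4 Y-linked genes, pseudocounts of 0.1 and 1, a filter at 5 TPM or none, median-ratio rescaling, no trend, the most abundant transcript alone, and each litter left out.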

Additional observations from a re-analysis of the deposited data

Results flagged for a closer look

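In 27 groups of 6 values, the highest or lowest library was compared with the range of its group, and 3 groups had a library whose gap to the next exceeded the 95% critical value of 0.625 of the range. Chance gives about 1 in 20. Il36g was at 84.2 TPM in the library labelled ErbB4myeKO of litter 6 (gap 0.877 of the range). Its littermate labelled ErbB4FF was at 75.1 TPM (gap 0.871). Il1b was at 14270 TPM in the library labelled ErbB4FF of litter 3, with a gap of 0.629, just above the critical value.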

How the results depend on the processing

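The fold changes of Il1a, Il1b, Il1rn, Il18, Il18bp, Il36g, Il1rap, Mefv, Casp1 and Nlrp3 kept their direction under each alternative run. Without the replicate block for litter, 75 genes in all had an unadjusted p under 0.05 in place of 721, with 0 of the family genes and 0 of the pathway genes. The covariate from Y-linked genes gave 2 pathway genes in place of 1, a pseudocount of 1 gave 2, no filter gave 3, and no trend gave 0 and left 1 family gene. With 1 litter left out, the genes at that threshold numbered 413 (without litter 2) to 864 (458 without litter 4), the family genes 0 to 2 (0 without litter 4; 1 each without litters 2, 3 and 5) and the pathway genes 0 to 2 (0 without litter 2). At an adjusted p under 0.05 the count was 0 to 1, the 1 being Igkv1-88 without litter 3, picked after its values were seen. Il1rn had an unadjusted p over 0.05 without trend (0.0595), without the block (0.366) and without litters 2, 3, 4 or 5 (0.0551 to 0.0832). Mefv had one over 0.05 in 9 of 15 alternatives: each litter left out (0.056 to 0.118), no trend (0.0974), the filter at 5 TPM (0.0512) and no block (0.663). The direction turned for low or divided values when 1 litter was left out: Il33 went from -0.041 (without litter 2) to 0.22, its transcript ENSMUST00000120388 from -0.044 (without litter 2) to 0.22, Il1r2 from -0.11 (without litter 2) to 0.31, and the Il18 transcript ENSMUST00000214117 from -0.47 to 0.15 (without litter 2). The Il18 transcript ENSMUST00000180021 went from -0.28 to 0.18 and was 0.03, 0.18 and 0.0077 without litters 4, 5 and 6. The Il18bp transcript ENSMUST00000209844 went from -0.024 to 0.055 and was -0.024 and -0.0031 without litters 1 and 5. Leaving out 1 litter moved the log2 difference of Il1b to Il1rn from 0.21 to 0.64, of Il1a to Il1b from 0.29 to 0.66 and of Il18 to Il18bp from -0.23 to -0.03. With the most abundant transcript alone, Il18 to Il18bp turned from -0.16 to 0.040, and Il18 was -0.093. The ratio of Il1r1 to Il1r2 was not computed, as both were listed at 0 in several libraries. The cause of these shifts was not tested.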
